A study of Mus musculus with 12 samples.

Results

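Aminoacyl-tRNA synthetases are the enzymes that join each amino acid to its transfer RNA. The 35 genes described here are 20 synthetases of the cytosol and 15 of the mitochondrion, the latter with symbols that end in 2. They were taken by symbol from a table of 23079 genes, and all 35 were in it. RNA came from midbrain dopaminergic neurons of C57BL/6 mice, from the substantia nigra pars compacta (SNpc) or the ventral tegmental area (VTA), with no treatment, genotype, age or sex in the labels. The labels call the samples TRAP samples, taken here to mean translating ribosome affinity purification: ribosomes tagged in a chosen cell type are pulled down together with the RNA they carry. The labels do not say which line carried the tag, in which cells it was made or how many animals went into a library. Each region had 6 columns, but SNpc columns 4 and 5 held the same counts for every gene, and so did VTA columns 2 and 3. Each such pair was counted as 1 sample, named SNpc library 4 and VTA library 2, which left 5 libraries per region.

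Each synthetase recognises its amino acid and the matching tRNAs, and its product is what the ribosome reads. The enzymes fall into 2 classes, I and II, by the fold of the catalytic domain. Several cytosolic enzymes sit with scaffold proteins in a multi-synthetase complex, and the others work outside it. The mitochondrial enzymes are encoded in the nucleus, made in the cytosol and imported, and they serve the small set of proteins that mitochondria translate. Gars and Kars each encode both a cytosolic and a mitochondrial form, so counts of these genes cannot be assigned to a compartment. Dominant variants of several cytosolic synthetases cause peripheral neuropathy, and recessive variants of mitochondrial ones cause disease of brain, heart or ovary. When amino acids run short, the transcription factor Atf4 raises transcription of many cytosolic synthetases.

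The libraries held 62356964 to 81393907 counted reads, and levels are given as CPM, the count of a gene relative to its library's total after TMM scaling. Across all genes, 15685 were tested, of which 2793 were higher in SNpc (17.8%) and 3203 higher in VTA (20.4%), so that 38.2% of tested genes differed between the regions (quasi-likelihood test of edgeR, p under 0.05 after Benjamini-Hochberg adjustment). The values of the regions did not overlap in 4177 genes (26.6%). Defining markers of dopaminergic neurons were present in every library, and 11 of 12 were higher in SNpc. Their summed level was 10947 to 15937 CPM in SNpc and 5634 to 9231 in VTA. Astrocyte markers summed to 264 to 435 CPM in SNpc and 447 to 594 in VTA, with 3 of 10 higher in VTA. Glutamatergic markers summed to 18.6 to 87.4 CPM in SNpc and 91.3 to 130.2 in VTA, with 1 of 2 higher in VTA. Of the microglial markers 2 of 10 were higher in VTA and 1 in SNpc, and of 8 tested endothelial and mural markers 2 were higher in VTA. Summed oligodendrocyte markers were 1417 CPM in SNpc library 4, 279 to 522 in the other SNpc libraries and 710.5 to 883 in VTA, with 0 of 10 called (edgeR). No marker was at 0 in all libraries. Serotonergic and cholinergic markers summed to 6.45 to 11.6 CPM in SNpc and 5.03 to 35.8 in VTA, with 1 of 5 tested higher in SNpc. Among the SNpc libraries, library 4 had the lowest dopaminergic sum and the highest sum of every other marker list. GABAergic markers summed to 314 CPM there, 84.8 to 139 in other SNpc libraries and 165 to 279 in VTA (0 of 3 called). Library 4 was also the SNpc library nearest to VTA on the main axis of variation. In bulk RNA of this kind, fewer cells of a type and less RNA per cell cannot be told apart. The labels name no animal for any library. The p-values therefore rest on the spread among 5 libraries a region, and that spread may be technical.

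Most cytosolic synthetases stood higher in SNpc, Sars, Hars, Nars and Wars foremost, and only Iars and Cars leaned the other way. All 20 were tested: 11 were called higher in SNpc by edgeR (17.8% of all tested genes were), 0 higher in VTA and 9 in neither direction. Of the 20 log2 fold changes (SNpc minus VTA), 18 were above 0, their median was 0.47 and they ran from -0.27 to 0.63. The median over all tested genes was -0.04, and 7450 of 15685 were above 0. The regions' values did not overlap in 9 of the 20, all of them higher in SNpc, against 26.6% of all tested genes. At an unadjusted p under 0.05, 1 cytosolic synthetase was higher in VTA. DESeq2 called 13 higher in SNpc, against 20.8% of all tested genes. It called 0 higher in VTA, against 3384 of all 15685 tested genes. Summed over the 20 genes, the level was 1419 ± 55.4 CPM in SNpc (SD, n = 5) and 1062 ± 47.6 in VTA (SD, n = 5), a ratio of 1.34. The SNpc sums ran from 1363 to 1506 CPM and the VTA sums from 998 to 1105, so every SNpc library was above every VTA library.

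**Figure D1:**
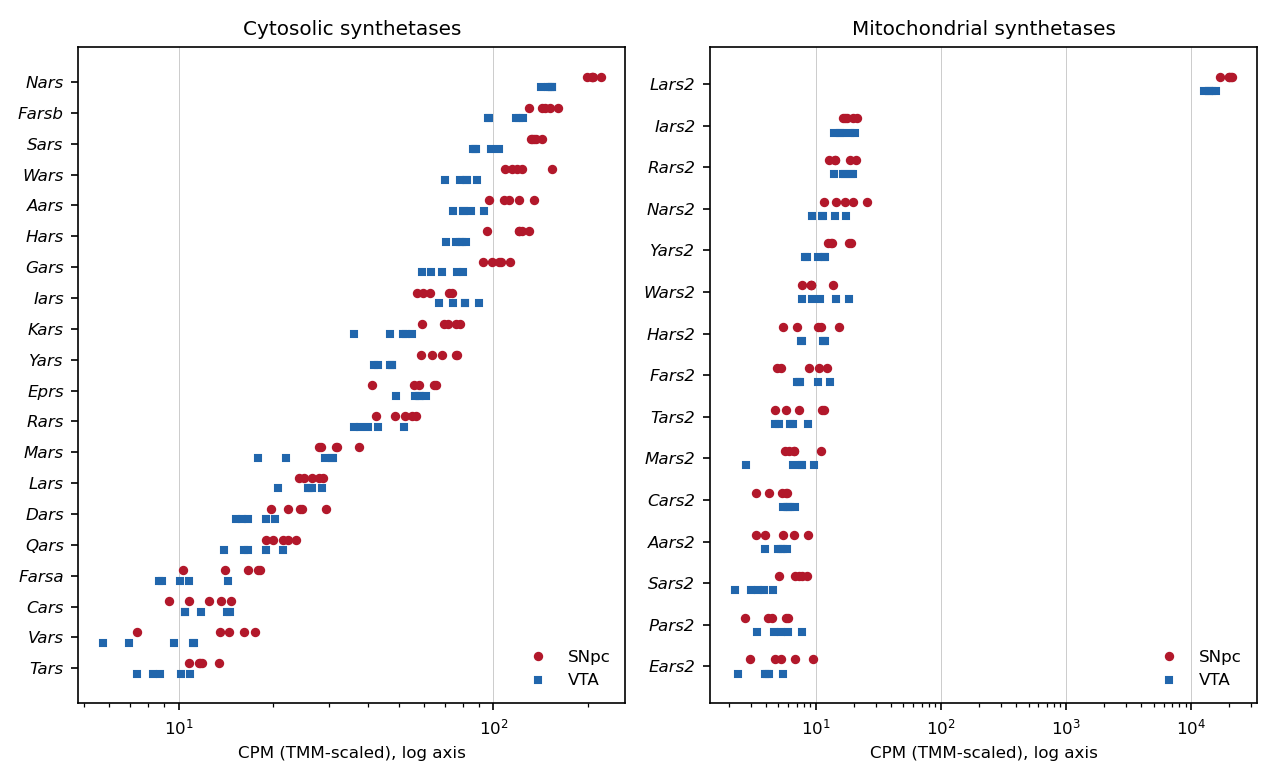
Level of each synthetase in every library, as CPM on a log axis, with cytosolic enzymes on the left and mitochondrial ones on the right, in order of mean level. Circles are the 5 SNpc libraries and squares the 5 VTA libraries. The circles lie wholly to the right of the squares for 9 cytosolic and 3 mitochondrial genes, and Lars2 lies far to the right of the other mitochondrial genes.

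Among enzymes of class II, which includes most of the genes with the smallest p, 9 of 10 were called higher in SNpc (17.8% of all tested genes were). Their median log2 fold change was 0.51, with a range of 0.38 to 0.61. Class II here holds the synthetases for serine, histidine, asparagine, glycine, alanine, lysine, aspartate and threonine and both subunits of the enzyme for phenylalanine. Among class I, with Eprs counted there although it joins a domain of each class, 2 of 10 were called, with a median of 0.28. That share is near the 17.8% of all tested genes. The difference between the classes was not tested. The class II genes also had shorter transcripts, with a median of 2277.5 bases against 3080.5 for class I, and transcript length moved with the fold change across the whole table, as described below.

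Sars, the seryl-tRNA synthetase (chr3:108424865-108445209, minus strand, mm10), had the smallest p. Its level in SNpc libraries 1, 2, 3, 4 and 6 was 132, 143, 137, 135 and 133 CPM, and in VTA libraries 1, 2, 4, 5 and 6 it was 87.7, 85.9, 98.3, 104 and 88.3. The lowest SNpc library was well above the highest VTA library, and the SNpc values lay within a narrow band. The log2 fold change was 0.55 (SE 0.09, edgeR adjusted p = 1.39e-04), or 1.47-fold. All values per library that follow are in this order.

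Hars charges the tRNA for histidine. Its CPM values were 121, 130.1, 121, 95.4 and 123 in SNpc and 70.6, 76.0, 78.6, 82.1 and 79.2 in VTA. Library 4 was the lowest of the SNpc samples, yet it was above every VTA library. The log2 fold change was 0.61 (SE 0.10, edgeR adjusted p = 1.56e-04), and 0.74 without SNpc library 4. Hars and Hars2 lie head to head, with annotated exons on opposite strands that share 195 bases, and the libraries do not mark the strand.

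Nars, the asparaginyl-tRNA synthetase, was the most abundant cytosolic member in SNpc per transcript length. It stood at 219, 198, 206, 206 and 208 CPM in SNpc and 142, 149, 153, 151 and 153 in VTA. These were the tightest groups of the 20 in VTA and among the tightest in SNpc, with coefficients of variation of 2.93% and 3.67%. The regions were apart, at a log2 difference of 0.47 (SE 0.08, edgeR adjusted p = 1.85e-04).

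Wars and Yars are the class I enzymes that were called. Wars, for tryptophan (chr12:108860030-108894174, minus strand, mm10), stood at 154, 123, 115, 109 and 119 CPM in SNpc and 82.1, 70.1, 78.2, 88.8 and 82.5 in VTA. SNpc library 1 was the highest, and the groups were apart without it too. The log2 fold change of Wars was 0.63 (SE 0.11, edgeR adjusted p = 2.4e-04), the highest of the called cytosolic genes. Yars, for tyrosine, stood at 68.8, 76.6, 63.7, 58.9 and 76.2 CPM in SNpc and 41.8, 43.0, 47.5, 47.8 and 47.1 in VTA. Its log2 fold change was 0.60 (SE 0.11, edgeR adjusted p = 3.86e-04), again with no overlap.

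Gars, the glycyl-tRNA synthetase, gave 104, 98.8, 106, 92.4 and 113 CPM in SNpc and 68.7, 63.4, 59.5, 76.6 and 80.0 in VTA. Every SNpc library was above every VTA library, at a log2 difference of 0.56 (SE 0.11, edgeR adjusted p = 5.36e-04). Farsb, the beta subunit of the phenylalanyl enzyme, was among the most abundant per length. Its CPM values were 151, 130.1, 143, 146 and 161 in SNpc and 96.2, 96.8, 118, 120.3 and 124 in VTA. The highest VTA library came near the lowest SNpc library, and the log2 fold change was 0.39 (SE 0.10, edgeR adjusted p = 0.00565). Farsa, the alpha subunit of the same enzyme, was at 15.4 ± 3.29 CPM (SD, n = 5) in SNpc against 10.5 ± 2.28 in VTA, with overlap. Its log2 fold change of 0.54 was close to the threshold (edgeR adjusted p = 0.0435), and 8 of the 10 fits that left out 1 library did not call it. Farsb shares 248 exonic bases with Sgpp2 on the other strand, and its counts are uncertain to that extent.

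The other called cytosolic genes were Aars, Kars and Dars, with log2 fold changes of 0.47, 0.55 and 0.47 and edgeR adjusted p of 0.00218, 0.00242 and 0.0218. Aars and Kars did not overlap between the regions, whereas Dars did. Dars was lost in 2 of the 10 fits that left out 1 library. Aars shares 1326 exonic bases with Exosc6 on the same strand, so part of its count may belong to that gene.

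Iars, the isoleucyl-tRNA synthetase (chr13:49682100-49734267, plus strand, mm10), stood out by its sign. Its level was 62.8, 59.8, 72.2, 57.4 and 74.1 CPM in SNpc and 90.0, 74.2, 67.3, 81.5 and 81.2 in VTA. The groups overlapped, with VTA library 4 below SNpc libraries 3 and 6. The log2 fold change was -0.27 (SE 0.11, edgeR adjusted p = 0.0613). Iars was called higher in VTA with scaling by library totals (-0.33, edgeR adjusted p = 0.0279), with a filter of at least 1 CPM in 5 libraries (-0.29, edgeR adjusted p = 0.0431), and without SNpc library 6 or VTA library 4. With the length trend removed the value was -0.11 (edgeR adjusted p = 0.45). In its transcript, 8.61% of 50-base windows also occur in another gene's transcript.

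Cars, for cysteine, was the other cytosolic gene with a fold change below 0. It gave 12.5, 9.29, 14.7, 10.8 and 13.6 CPM in SNpc and 14.6, 10.5, 11.8, 10.5 and 14.2 in VTA, and the values intermixed. Its log2 fold change of -0.02 (edgeR adjusted p = 0.946) changed sign to 0.01 under DESeq2 and under its size factors. Lars, for leucine, and Eprs, which charges both glutamate and proline tRNAs, also had values near 0 (0.06 and 0.01). Vars, for valine, had a log2 fold change of 0.63, as large as that of Wars, but a larger SE of 0.25 (edgeR adjusted p = 0.0567). The remaining 4 that were not called, Rars, Tars, Qars and Mars, lay between 0.27 and 0.38 on the log2 scale. Mars shares 68 exonic bases with Ddit3 on the other strand.

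**Figure D2:**
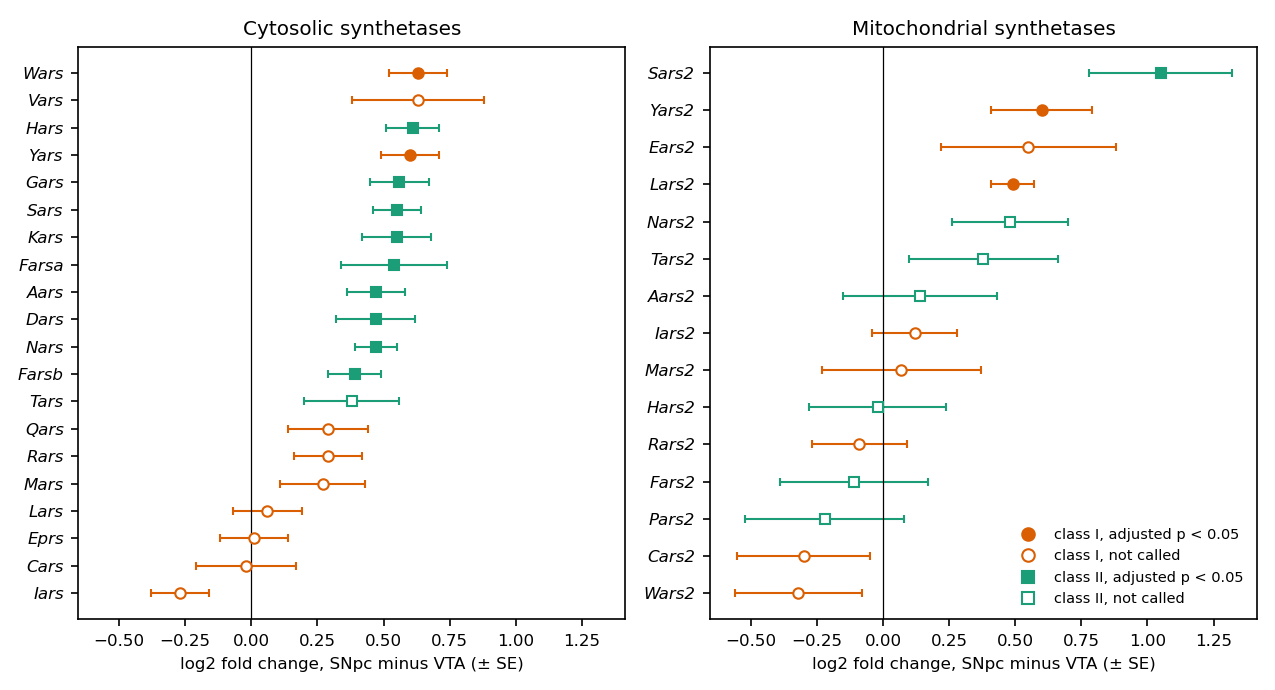
Log2 fold change of each synthetase, SNpc minus VTA, with its SE, in the cytosolic (left) and mitochondrial (right) group. Colours and shapes give the catalytic class, and filled symbols have an edgeR adjusted p under 0.05. Of the 10 cytosolic class II genes, 9 are filled, and Iars is the lowest cytosolic gene.

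The multi-synthetase complex holds 8 of the cytosolic genes measured here: Eprs, Iars, Lars, Mars, Qars, Rars, Kars and Dars. Of these 2 were called higher in SNpc (Kars and Dars), a share near the 17.8% of all tested genes. By edgeR 0 were higher in VTA (1 at an unadjusted p under 0.05, and 0 by DESeq2), and their median log2 fold change was 0.28. The difference between complex members and the other cytosolic enzymes was not tested. The 3 non-catalytic proteins that hold the complex together had values of 0.84 for Eef1e1 (edgeR adjusted p = 3.5e-04), 0.66 for Aimp2 (edgeR adjusted p = 0.00237) and 0.37 for Aimp1 (edgeR adjusted p = 0.0589). Eef1e1 was at 52.3 ± 5.91 CPM (SD, n = 5) in SNpc against 29.2 ± 6.05 in VTA. The scaffold transcripts are short, with a median of 1185 bases. With the length trend removed and the scaling refitted, 1 of the 3 remained past the threshold, against 14.9% of all tested genes higher in SNpc.

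The promoters of the cytosolic genes were searched for the element through which Atf4 acts, since 11 of the 20 were called in the same direction. The motif was TGATGNAA on either strand, in windows of 300 bases from RefSeq (assembly GRCm38.p6), from 250 before to 50 after each start. Of the 35 members, 26 had a window, 13 cytosolic and 13 mitochondrial. TGATGNAA was in 5 of the 13 cytosolic windows (38.5%), in 0 of the 13 mitochondrial genes and in 1304 of 32851 windows of all genes (3.97%). The 30 bases around a match in each of the 5 genes are shown 5′ to 3′ on the gene's strand, because they are the sequences the count rests on, with the match in capitals. A gene may hold more than the match shown. A match read as TTGCATCA or TTTCATCA lies on the opposite strand.
Aars, chr8:111033840-111033869: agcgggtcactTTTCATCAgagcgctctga
Gars, chr6:55037960-55037989: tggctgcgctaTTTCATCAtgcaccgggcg
Iars, chr13:49682126-49682155: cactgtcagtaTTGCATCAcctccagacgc
Tars, chr15:11399655-11399684: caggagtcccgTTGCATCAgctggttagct
Yars, chr4:129189895-129189924: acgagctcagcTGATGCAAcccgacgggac
All but Tars, which is on the minus strand, are on the plus strand. The matches shown for Aars, Iars and Yars begin 10, 8 and 4 bases after the start, and those of Tars and Gars 15 and 30 bases before it. Hars, Nars and Wars, which were called with some of the smallest p, had no window, nor had Cars, Lars, Rars and Vars, which were not called. Among cytosolic genes with a window, the motif was in 3 of 8 called higher in SNpc and in 2 of 5 that were not, Iars and Tars. Iars, the gene with the lowest fold change, and Yars, with one of the highest, thus both hold a match. A match is a description of the sequence and shows no binding.

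The mitochondrial synthetases lay closer to the median of all genes, and most did not differ detectably between the regions. Of the 15 genes, all tested, 3 were called higher in SNpc by edgeR, namely Lars2, Sars2 and Yars2, a share of 20% near the 17.8% of all tested genes. None was called higher in VTA, and the count was 0 at an unadjusted p under 0.05 and by DESeq2 as well. Their log2 fold changes had a median of 0.12, ran from -0.32 to 1.05 and were above 0 in 9 genes. The regions did not overlap in 3 of the 15 (20%), the called genes, against 26.6% of all tested genes. Without Lars2, the sum over the other 14 was 139 ± 13.9 CPM (SD, n = 5) in SNpc against 125 ± 8.15 in VTA, a ratio of 1.11, with overlap between the regions. The difference between the cytosolic and the mitochondrial group was not tested. The mitochondrial genes were measured at lower levels, with counts from 142 in 1 library of Sars2, and their SDs were larger relative to their means.

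Sars2, the mitochondrial seryl-tRNA synthetase (chr7:28741992-28753871, plus strand, mm10), had the largest fold change of all 35 members. Its CPM values were 7.67, 6.81, 8.42, 7.28 and 5.02 in SNpc and 3.80, 3.44, 2.24, 3.01 and 4.50 in VTA. All SNpc libraries were above all VTA libraries, with SNpc library 6 the closest. The log2 fold change was 1.05 (SE 0.27, edgeR adjusted p = 0.00618), or 2.07-fold. Yars2, for tyrosine (chr16:16302965-16309640, plus strand, mm10), was at 19.2, 13.2, 13.3, 18.3 and 12.5 CPM in SNpc and 8.16, 8.54, 10.3, 11.8 and 11.6 in VTA. The lowest SNpc and the highest VTA library were close. The log2 fold change was 0.60 (SE 0.19, edgeR adjusted p = 0.0204), and it was 0.34 (edgeR adjusted p = 0.16) with the length trend removed. Yars2 was also lost without SNpc library 1 and without VTA library 1 or 2.

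Lars2, the mitochondrial leucyl-tRNA synthetase (chr9:123366927-123462666, plus strand, mm10), held more reads than any other gene of the table in all 10 libraries. Its level was 19964, 20883, 20147, 17091 and 21220.3 CPM in SNpc and 13752, 12719, 15738, 13739 and 14611 in VTA. This was 1.29% to 2.04% of all counts of a library. The regions did not overlap, at a log2 difference of 0.49 (SE 0.08, edgeR adjusted p = 1.65e-04). Per kilobase of transcript, Lars2 stood 491 to 847 times above cytosolic Lars within a library. In the Lars2 transcript, bases 3278 to 3349, which lie after the last coding base (2908), are 98.6% identical over 72 bases to Gm15564, annotated as an antisense RNA. Whether reads from elsewhere were counted in Lars2 was not tested, and the count cannot be read as the level of the enzyme's mRNA. The genes next in abundance, 2610528E23Rik and Filip1l, were at 8498 and 8483 CPM on average.

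Rars2, for arginine, was next to Yars2 in level per length. It gave 20.9, 12.7, 18.7, 14.1 and 14.3 CPM in SNpc and 13.8, 19.1, 16.4, 19.9 and 16.9 in VTA, and its values intermixed (log2 fold change -0.09, edgeR adjusted p = 0.715). Among the genes with a fold change below 0, Wars2, for tryptophan, was lowest. Its CPM values were 7.76, 13.6, 9.03, 9.19 and 9.04 in SNpc and 14.5, 10.8, 18.4, 9.21 and 7.73 in VTA, with a log2 fold change of -0.32 (edgeR adjusted p = 0.328). Both the highest and the lowest values were in VTA. Cars2, for cysteine, was at 5.90, 5.30, 5.76, 4.17 and 3.32 CPM in SNpc and 5.82, 5.94, 5.48, 6.19 and 6.75 in VTA (log2 fold change -0.30, edgeR adjusted p = 0.365). SNpc libraries 4 and 6 were below the rest. In its transcript, 17.8% of windows are shared with Naxd.

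Pars2, for proline, was at 4.47, 4.14, 2.72, 5.74 and 5.97 CPM in SNpc and 3.39, 5.23, 5.93, 4.57 and 7.67 in VTA, with full overlap (log2 fold change -0.22). Fars2, for phenylalanine, was at 12.2, 4.91, 10.6, 8.80 and 5.21 CPM in SNpc and 13.0, 7.38, 10.3, 7.05 and 7.25 in VTA (log2 fold change -0.11). Hars2, for histidine, was at 10.4, 7.07, 11, 15.3 and 5.40 CPM in SNpc and 7.61, 11.5, 11.7, 11.3 and 7.79 in VTA (log2 fold change -0.02). For these genes the spread within SNpc was larger than the difference between the means, and Hars2 changed sign under 6 settings other than leaving out a library. The other 6 mitochondrial genes had positive fold changes that were not called: Ears2 0.55, Nars2 0.48, Tars2 0.38, Aars2 0.14, Iars2 0.12 and Mars2 0.07 on the log2 scale. Their edgeR adjusted p ran from 0.0988 for Nars2 to 0.88 for Mars2. Iars2 shares 2034 exonic bases with Rab3gap2 on the other strand, so its counts in particular cannot be assigned to 1 gene.

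**Figure D3:**
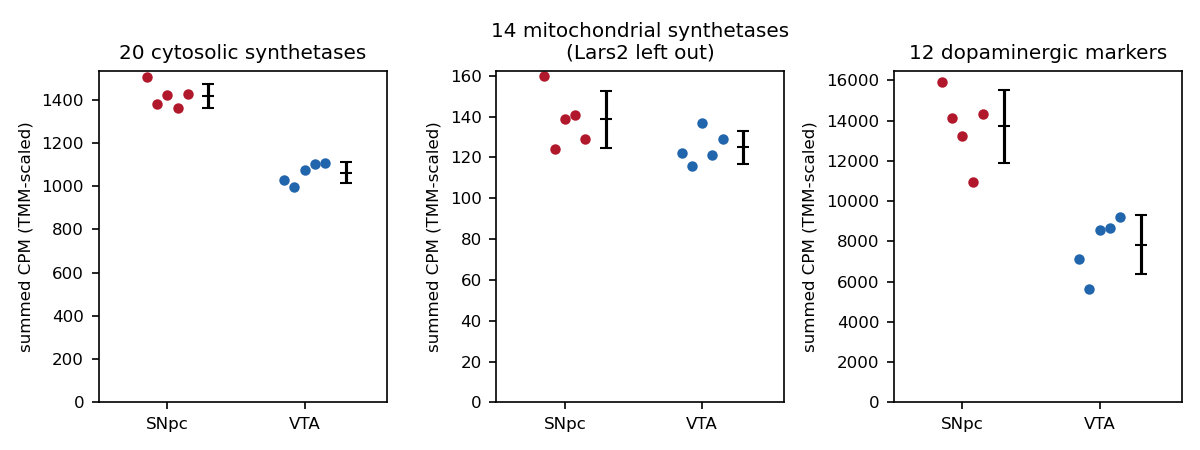
Summed level in each library of the 20 cytosolic synthetases (left), the 14 mitochondrial ones other than Lars2 (middle) and 12 dopaminergic markers (right), in CPM, with bars for mean ± SD over 5 libraries. For the cytosolic synthetases (1363 to 1506 CPM against 998 to 1105) and the markers (10947 to 15937 against 5634 to 9231), every SNpc library lies above every VTA library, and the mitochondrial sums overlap.

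Levels were compared between genes as CPM per kilobase of annotated transcript (CPM/kb). In SNpc the order began with Nars at 75.6 ± 2.78 CPM/kb, Farsb at 71.8 ± 5.53, Wars at 68.0 ± 9.47 and Hars at 59.4 ± 6.67 (SD, n = 5), and these neighbours did not differ beyond their SDs. It ended with Cars at 3.78, Vars at 3.34 and Tars at 2.97 CPM/kb. In VTA, Farsb (54.6 ± 6.65 CPM/kb) and Nars (54.5 ± 1.6) were level at the top, followed by Wars (44.0 ± 3.76), and Tars (2.28 ± 0.358) and Vars (2.16 ± 0.598) were lowest. In each region 5 of the steps between neighbours were larger than the SDs of both. Farsb was thus several times above its partner subunit Farsa, which was at 8.42 ± 1.8 CPM/kb in SNpc and 5.77 ± 1.25 in VTA. The mitochondrial genes other than Lars2 ran in SNpc from Yars2 at 9.72 ± 2.03 CPM/kb and Rars2 at 8.64 ± 1.85 down to Mars2 at 0.636 ± 0.191. In VTA Rars2 (9.22 ± 1.29 CPM/kb) stood above Yars2 (6.4 ± 1.07). The values depend on the annotated length, which for Mars2 is 11294 bases and for Aars 5750, the latter with the part shared with Exosc6.

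A cytosolic gene was paired with the member of the same symbol ending in 2, which gave pairs for 12 amino acids. Phenylalanine (Farsa, Farsb and Fars2), glutamate (Eprs and Ears2) and proline (Eprs and Pars2) were not paired, because their symbols differ. Of these unpaired genes, Farsa and Farsb were called higher in SNpc and the others were not. Among the 12 pairs, both genes were called higher in SNpc for serine (Sars and Sars2) and tyrosine (Yars and Yars2). The cytosolic gene only was called for 4 amino acids (histidine, asparagine, tryptophan and alanine), the mitochondrial gene only for leucine, and neither for 5. The leucine pair rests on the Lars2 count, which cannot be read as the level of the enzyme's mRNA. For tyrosine the log2 fold changes were 0.60 and 0.60, and for tryptophan 0.63 and -0.32. Whether the fold changes within a pair differ was not tested. The cytosolic gene had the higher level per length in both regions for 10 of the 12. Wars stood 30.8 times above Wars2 in SNpc and 16 times in VTA, and Yars 2.44 times above Yars2 in both. The exceptions were leucine, with the same limit on Lars2, and threonine, with Tars at 0.881 times the level of Tars2 in SNpc and 0.877 times in VTA.

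Transcript length moved with the regional difference across the whole table. With tested genes split by length into 5 classes of like size, the median log2 fold change was 0.33 in the shortest class, then 0.15, -0.03, -0.16 and -0.48 in the longest. In the class from 1705 to 2565 bases, 7 of 8 cytosolic synthetases were called higher in SNpc, against 23.6% of all genes of that length. From 2566 to 3498 bases 2 of 5 were called (15.7% of all genes), from 3499 to 4934 bases 1 of 6 (13.1%), and the longest class held only Aars of this group, which was called (7.37%). The mitochondrial genes called were 1 of 1, 1 of 7, 0 of 2, 1 of 3 and 0 of 2 from the shortest to the longest class. Across the 20 cytosolic genes, log2 fold change and log length had a Pearson correlation of -0.48 and a Spearman correlation of -0.44. Across the 15 mitochondrial genes these were -0.19 and -0.21. The genes share the same 10 libraries, so the values are descriptions.

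With the length trend of all genes removed and the scaling refitted, 8 of the 11 cytosolic calls remained. That fit called 14.9% of all tested genes higher in SNpc. Dars (0.31, edgeR adjusted p = 0.117), Farsa (0.33, edgeR adjusted p = 0.22) and Farsb (0.22, edgeR adjusted p = 0.0733) were no longer called. Vars (0.76, edgeR adjusted p = 0.0289) and Tars (0.49, edgeR adjusted p = 0.0473), which have long transcripts, were called in addition. Lars2 (0.59) and Sars2 (0.83, edgeR adjusted p = 0.0272) remained. What produced the length trend was not tested.

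**Figure D4:**
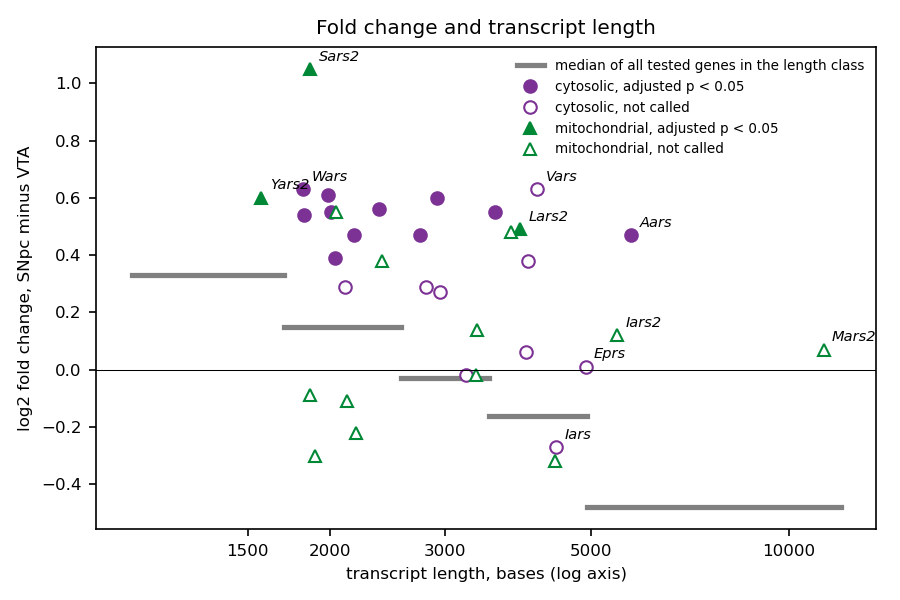
Log2 fold change (SNpc minus VTA) of each synthetase against the length of its transcript in bases on a log axis. Grey bars are the median of all tested genes in each length class, drawn within the plotted range (0.33, 0.15, -0.03, -0.16 and -0.48), circles are cytosolic and triangles mitochondrial genes, and filled symbols have an edgeR adjusted p under 0.05. Most cytosolic genes lie above the grey bar of their length, Iars excepted.

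Glial markers (the mean log2 CPM of the oligodendrocyte, astrocyte and microglial lists) were entered as a covariate in another fit. It kept 9 of the 11 cytosolic calls, without Dars (0.40, edgeR adjusted p = 0.0992) and Farsa (0.60, edgeR adjusted p = 0.0603), and all 3 mitochondrial ones. Of all tested genes it called 12.7% higher in SNpc. Sars was at 0.54 and Hars at 0.48 on the log2 scale in that fit. SNpc library 4 had the highest sums of all non-dopaminergic marker lists among the SNpc libraries, and the lowest dopaminergic sum. Without it, 12 cytosolic genes were called, among them Rars and Vars in place of Farsa, and 3 mitochondrial ones (20.9% of all tested genes). The summed dopaminergic markers were higher in SNpc as the cytosolic synthetases were, and their part in the result was not tested. Nor was that of the GABAergic, the glutamatergic and the endothelial or mural markers.

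Genes around the synthetases were described by lists drawn from general knowledge, but chosen with earlier results of these data known. A list of 14 symbols covered enzymes related to the synthetases, such as those of editing and of mitochondrial glutaminyl-tRNA formation, and 11 genes of it were tested. Of these, 4 were called higher in SNpc (17.8% of all tested genes were) and 0 in VTA by edgeR (0 at an unadjusted p under 0.05, 0 by DESeq2). Their median was 0.20. Aarsd1, which hydrolyses mischarged alanyl-tRNA, had a log2 fold change of 0.59 (edgeR adjusted p = 6.63e-04). Dtd1, a deacylase that removes D-amino acids from tRNA and the most abundant of the list at 162 ± 17.6 CPM in SNpc and 124 ± 13.9 in VTA, had 0.39 (edgeR adjusted p = 0.00742). Prorsd1 had 0.54 (edgeR adjusted p = 0.0304). Vars2, a mitochondrial synthetase outside the 35, had -0.18 and was not called (edgeR adjusted p = 0.645). Leaving out SNpc library 1 or 3 or VTA library 1 or 2 lowered the count of this list to 2. Those fits called 14.5% to 15.7% of all tested genes higher in SNpc. Removing the length trend and refitting the scaling lowered the count to 1 (14.9% of all tested genes).

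Of 30 tested genes for making mature tRNA, 10 were called higher in SNpc (17.8% of all tested genes were) and 1 higher in VTA (20.4% of all), and the median was 0.28. The smallest p values belonged to Pop4, Pop7 and Rpp21, subunits of ribonuclease P, which trims the leader of precursor tRNA. Their log2 fold changes were 0.64, 0.73 and 0.72 (edgeR adjusted p of 0.00586, 0.00602 and 0.00607). Pop5, the most abundant, had 0.34 and was not called (edgeR adjusted p = 0.0738). The gene higher in VTA was Clp1, a kinase of the tRNA splicing machinery, with -0.78 (edgeR adjusted p = 0.0344), and this call was lost in 8 of the 10 fits without 1 library. With the length trend removed and the scaling refitted, 3 of the 30 were called higher in SNpc, against 14.9% of all tested genes.

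Elongation factors bring the charged tRNAs to the ribosome and move it along the mRNA. Of 7 cytosolic ones, 2 were called higher in SNpc (17.8% of all tested genes were) and 0 in VTA (0 at an unadjusted p under 0.05, 0 by DESeq2). Eif5a, which helps the ribosome through proline stretches, had a log2 fold change of 0.56 (edgeR adjusted p = 0.00225), and Eef1a2, the neuronal form of the factor that delivers charged tRNA, had 0.45 (edgeR adjusted p = 0.00374). Eef1a1, the most abundant at 1081 ± 92.7 CPM in SNpc and 913 ± 108 in VTA, had 0.24 (edgeR adjusted p = 0.0505), and its reads can be shared with processed copies. Of 9 mitochondrial translation factors, 3 were called higher in SNpc, against the same 17.8%, and 0 in VTA (0 at an unadjusted p under 0.05, 0 by DESeq2), with a median of 0.41. These were Tufm, the mitochondrial factor that delivers charged tRNA (0.64, edgeR adjusted p = 0.00112), Mrrf (0.50, edgeR adjusted p = 0.0158) and Gfm2 (0.41, edgeR adjusted p = 0.0218), which act in ribosome recycling. Gfm1, the most abundant, had 0.19 (edgeR adjusted p = 0.237).

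Uncharged tRNA is sensed by the kinase Eif2ak4, which phosphorylates eIF2 and so blocks its exchange factor eIF2B. Of 12 genes of this step, 4 were called higher in SNpc (17.8% of all tested genes were) and 0 in VTA (0 at an unadjusted p under 0.05, 0 by DESeq2). Impact, an inhibitor of Eif2ak4 activation that is abundant in neurons, was at 884 ± 103 CPM in SNpc and 640.2 ± 37.3 in VTA, with a log2 fold change of 0.47 (edgeR adjusted p = 6.71e-04). Eif2b2 had 0.64 (edgeR adjusted p = 0.00295) and Eif2s1, the phosphorylated subunit, 0.38 (edgeR adjusted p = 0.0381). Eif2ak4 itself had -0.07 (edgeR adjusted p = 0.784). The count was 7 with DESeq2, with its size factors and without SNpc library 4. These fits called 20.8%, 19.5% and 20.9% of all tested genes higher in SNpc. The count was 2 without VTA library 4 (16.7% of all tested genes) and with scaling by library totals (15.3%).

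Of 33 listed targets of the stress response downstream of eIF2, 31 were tested. Of these 5 were called higher in SNpc (17.8% of all tested genes) and 6 higher in VTA (20.4% of all), shares near the background, and the median log2 fold change was 0.05. Asns, which makes asparagine, was higher in SNpc by 0.51 (edgeR adjusted p = 0.00169) and stood at 118 ± 12.2 CPM there and 82.7 ± 11.1 in VTA. Atf4 had a log2 fold change of 0.35 (edgeR adjusted p = 0.0157), with 202 ± 22.2 CPM in SNpc and 159 ± 20.7 in VTA. Ppp1r15a, which directs the phosphatase of eIF2, was lower in SNpc, with -1.55 (edgeR adjusted p = 2.86e-06), as was Slc38a2, an amino acid transporter, with -0.96 (edgeR adjusted p = 1.7e-05). Slc38a2 was at 99.6 ± 17.2 CPM in SNpc and 194 ± 24.2 in VTA. Leaving out SNpc library 1 or 2 or VTA library 1 reduced the calls higher in VTA from 6 to 3. Over all genes, these fits called 2879, 2938 and 2949 higher in VTA, against 3203 with all libraries. Ddit3, called higher in SNpc with 0.65 (edgeR adjusted p = 0.0118), shares exonic bases with Mars.

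**Figure D5:**
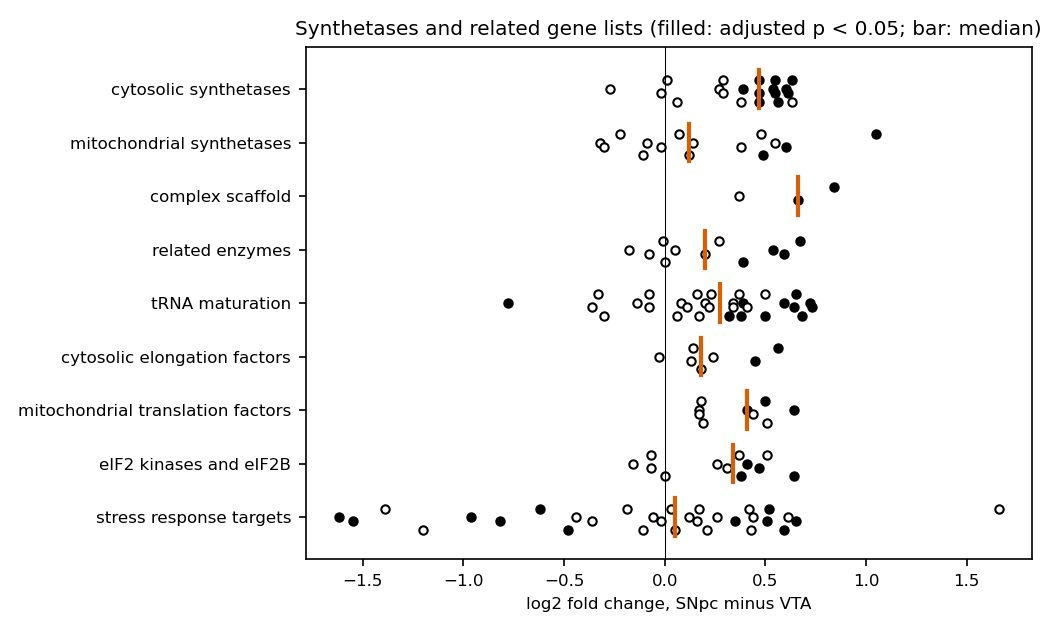
Log2 fold change (SNpc minus VTA) of each tested gene in the 2 synthetase groups and 7 related lists. Filled points have an edgeR adjusted p under 0.05, and the bar is the list's median. The cytosolic synthetases have a median of 0.47, the scaffold genes 0.66 and the stress response targets 0.05, with called genes on both sides of 0 in the last.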

How the data were processed

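The authors deposited raw read counts, unnormalized whole numbers for each gene, in 12 columns (6 a region). Per the submitters' processing notes, TopHat2 2.0.8 placed the reads on mm10. How they were then counted, on which annotation and with what strand setting, is not given in the sources used here. Per the labels' protocols, cDNA was amplified from a very small input with the NuGEN Ovation V2 kit, which does not mark the strand, and sequenced from one end. How evenly long transcripts were copied can therefore affect counts.

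The members and lists were chosen with earlier results of these data known. Identical columns were counted once (0 genes different, against chi-square values per gene of 43.1 to 148 for other pairs), which left 5 libraries per region and not 6. No column lacked a sample (0), and 0 lines named no gene. Genes were filtered with filterByExpr by region, scaled by TMM and tested with edgeR 4.0.16 in R 4.3.3 (robust quasi-likelihood F test, no covariate). P-values were adjusted by Benjamini-Hochberg over all 15685 genes and called under 0.05. CPM values are TMM-scaled. The script was tested on simulated counts. Results were also computed with DESeq2 1.42.0, its size factors (RLE), library totals, other filters, all 12 columns, the replicate number as a block, glial markers as covariate, the length trend removed and each library left out. Lengths are from GENCODE M21 transcripts, matched for 20945 genes. The libraries' biological coefficient of variation was 39.6%.

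Values per library are given for the members of smallest p in each class, those most abundant per length and those against the direction of most of their class. Of the related lists, up to 3 called genes of smallest p and the most abundant are named, plus a few (Vars2, Atf4, Ddit3, Clp1, Eif2ak4) chosen after their values were seen. Shared windows of 50 bases and exon overlaps were computed from the same annotation, and blastn 2.17.0 compared Lars2 with all other transcripts. Gatb (listed also under its older symbol Pet112), Dtd2 and Rtcb had no matching row and were not analysed here. A withheld item is not reported here.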

Additional observations from a re-analysis of the deposited data

Results flagged for a closer look

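In each of the 35 genes and both regions, 70 groups of 5 libraries were checked for a sample far from the others, and 3 were found, where chance gives about 1 in 20. Hars was at 95.4 CPM in SNpc library 4, against 121 to 130.1 in the other SNpc libraries. Mars2 was at 11 CPM in SNpc library 6, against 5.61 to 6.71 in the others. Wars2 was at 13.6 CPM in SNpc library 2, against 7.76 to 9.19 in the others. The Hars library is also the SNpc library with the highest sums of all non-dopaminergic marker lists and the lowest dopaminergic sum. The part of these markers in the value was not tested.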

How the results depend on the processing

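Of 350 values of members under settings other than a left-out library, 310 kept their direction and side of the threshold, 14 fell below it, 13 passed it and 13 changed sign. Of 350 with 1 library left out, the counts were 309, 13, 9 and 19. The cause of each change was not tested. Cytosolic synthetases higher in VTA numbered 1 (Iars) with library totals, the filter of 1 CPM or 12 columns, and their median was 0.36 and 0.35 with the length trend removed at the kept and refitted scale.

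Deviations of same-numbered libraries had correlations of 0.03, -0.07, -0.01 and 0.04, against -0.12 to 0.10 for libraries of different number. The labels name no animals, and these values cannot exclude that libraries were paired. With the replicate number as a block, 10 cytosolic synthetases (without Dars) and 1 mitochondrial one (Lars2) were called higher in SNpc, as were 1 related enzyme, 3 tRNA maturation genes, 1 cytosolic elongation factor, 2 genes of eIF2 and 3 stress targets, with 3 stress targets higher in VTA. Over all genes, the block fit called 1814 higher in SNpc (11.6%) and 2571 higher in VTA. SNpc library 3 and VTA library 5 had no partner of the same number. That fit therefore compared the regions only within numbers 1, 2, 4 and 6, and its fewer calls cannot be read as an effect of pairing.

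With the glial covariate, 2 related enzymes, 5 tRNA maturation genes, 1 mitochondrial factor, 2 genes of eIF2 and 3 stress targets were higher in SNpc (12.7% of all genes), and 0 tRNA maturation genes in VTA. With the length trend removed, at either scale, 1 scaffold gene, 1 related enzyme, 1 cytosolic elongation factor and 2 stress targets were higher in SNpc, and 4 (kept) or 3 (refitted) tRNA maturation genes. Of all genes, 15% (kept) or 14.9% (refitted) were. Genes of eIF2 numbered 7 with DESeq2 (20.8% of all genes) and RLE (19.5%) and 2 with library totals (15.3%).

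Signs changed for Cars (0.01 with DESeq2 and RLE), Eprs (-0.04 with totals, -0.01 with the filter of 1 CPM, -0.07 with the block), Mars2 (-0.01) and Aars2 (-0.17) with the glial covariate, and Hars2 (0.01 with DESeq2, RLE and the refitted length trend, 0.08 with 12 columns, 0.17 with the glial covariate, 0.02 with the kept scale). With 1 library left out, 14.5% to 20.9% of all tested genes were called higher in SNpc, and 2790 to 3193 genes higher in VTA. In these fits, cytosolic synthetases called higher in SNpc ran from 9 to 12, with 0 to 1 higher in VTA and medians of 0.40 to 0.52. Mitochondrial ones ran from 2 to 4, with medians of 0.06 to 0.20. Related enzymes ran from 2 to 4, tRNA maturation genes from 8 to 11 (0 to 1 in VTA), scaffold genes and cytosolic elongation factors from 2 to 3, mitochondrial factors from 2 to 4, genes of eIF2 from 2 to 7 and stress targets from 4 to 6 (3 to 6 in VTA). Ranges that crossed 0 were -0.09 to 0.08 for Cars, -0.04 to 0.11 for Eprs, -0.01 to 0.14 for Lars, -0.13 to 0.22 for Mars2, -0.20 to 0.01 for Rars2, -0.07 to 0.31 for Aars2, -0.29 to 0.06 for Fars2 and -0.17 to 0.14 for Hars2. The lowest count of any member in a library was 142 reads, in Sars2.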
